A study of Homo sapiens with 12 samples.

Results

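The libraries labelled KD2 and KD1, both labelled as knockdowns of DHODH in one prostate cancer cell line, were compared directly with each other. The comparison was chosen by library title and holds 6 of the 12 libraries of the series, 3 from KD1 and 3 from KD2. MDA-PCa-2b is an established human prostate adenocarcinoma line, and all 12 libraries are labelled as coming from it, although the shared growth protocol also names MDA-PCa-2a. RNA was poly-A selected and sequenced as read pairs, and each library was deposited as raw read counts per gene. Besides KD1 and KD2, the series holds 3 libraries labelled NT and 3 of a rescue of the second knockdown (KDR), whose levels are given here only as side values. The labels do not say what NT stands for, what kind of construct made either knockdown, how the rescue was made, whether a line is 1 clone or a pool, or whether the 3 libraries of each group are separate cultures. P-values therefore speak only of variation among these libraries, part or all of which may be technical.

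DHODH encodes dihydroorotate dehydrogenase, the enzyme of the inner mitochondrial membrane that makes orotate for pyrimidine synthesis and hands electrons to ubiquinone. Luminal cells of the prostate depend on androgen signalling and on a small set of lineage transcription factors, and secrete kallikreins, zinc and citrate. Receptors and kinases carry growth signals into such cells, transporters set what they take up and release, and transcription factors and noncoding RNAs shape which genes they express. These 5 gene classes, split into 40 families, are described in turn.

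DHODH RNA was not lower in KD2 than in KD1. Its 3 KD1 libraries stood at 11.0, 10.4 and 9.63 counts per 1000000 counts, scaled by trimmed mean of M values (CPM), from 310, 251 and 370 counts, and its KD2 libraries at 11.4, 13.02 and 14.9 CPM, from 402, 375 and 356 counts. Every KD2 library lay above every KD1 library, yet the log2 fold change of 0.34 ± 0.14 (SE) missed the threshold (adjusted p = 0.07, edgeR quasi-likelihood test). The NT libraries averaged 10.5 CPM and the rescue libraries 18.6 CPM. The groups are called below only by their labels, since DHODH RNA averaged 10.35 CPM in KD1, near the NT mean, and was not lower in KD2. KD1 was not tested against NT here.

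Total counts ran from 23786288 to 38240369 in the 6 libraries. The biological coefficient of variation was 6.61% within KD1, 7.17% within KD2, 5.52% within the rescue and 15.8% within NT. P-values rest on an estimate of spread shared by all groups, not on the spread of KD1 and KD2 alone. Mitochondrial transcripts took 3.42% to 3.43% of counts in KD1 and 3.59% to 3.70% in KD2. Of 10 luminal prostate markers, 9 were called lower in KD2 and none higher, and their summed level was 16200 to 16600 CPM in KD1 and 10800 to 11200 in KD2. Markers of other cell types were low in both groups, with 5.55 to 7.25 CPM summed over 4 basal genes, 3.61 to 4.45 over 6 neuroendocrine genes, 1.84 to 5.00 over 7 fibroblast genes, 0.26 to 0.937 over 5 endothelial genes and 0.0284 to 0.25 over 6 immune genes. TP63 of the basal list, 2 endothelial and 3 immune genes were at 0 in all 6 libraries. In bulk RNA, fewer cells of one kind and less RNA per cell cannot be told apart, and the part of the luminal shift in the results below was not tested.

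Of 19373 genes tested, 6868 (35.5%) were called at an adjusted p under 0.05, 3473 (17.9%) higher and 3395 (17.5%) lower in KD2. Among 8072 abundant genes, those that averaged 20 CPM or more over the 6 libraries, 50.6% were called, 26.4% higher and 24.3% lower, and 849 (10.5%) were called with a moderate change, meaning an absolute log2 fold change from 0.58 to 2, or 1.5-fold to 4-fold. A change past that size was called in 653 (3.37%) of all genes and in 54 (0.669%) of the abundant ones, and a moderate one in 2437 (12.6%) of all genes. Of 339 receptors tested, 104 were higher and 66 lower (50.1% called). Kinases had 115 higher and 62 lower of 380 (46.6%), and transporters and channels 110 higher and 118 lower of 483 (47.2%). Transcription factors had 201 higher and 174 lower of 947 (39.6%), and noncoding RNA genes 103 higher and 200 lower of 1464 (20.7%). At 20 CPM or more, the share called was 62.2% of 143 receptors, 46.0% of 265 kinases and 57.7% of 227 transporters and channels, against 50.6% for all genes of that level, and 122 of 438 transcription factors were higher and 97 lower. The median log2 fold change was -0.01 over all genes tested, 0.13 for receptors, 0.06 for kinases, -0.02 for transporters, 0.04 for transcription factors and -0.12 for noncoding RNA.

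**Figure D1:**
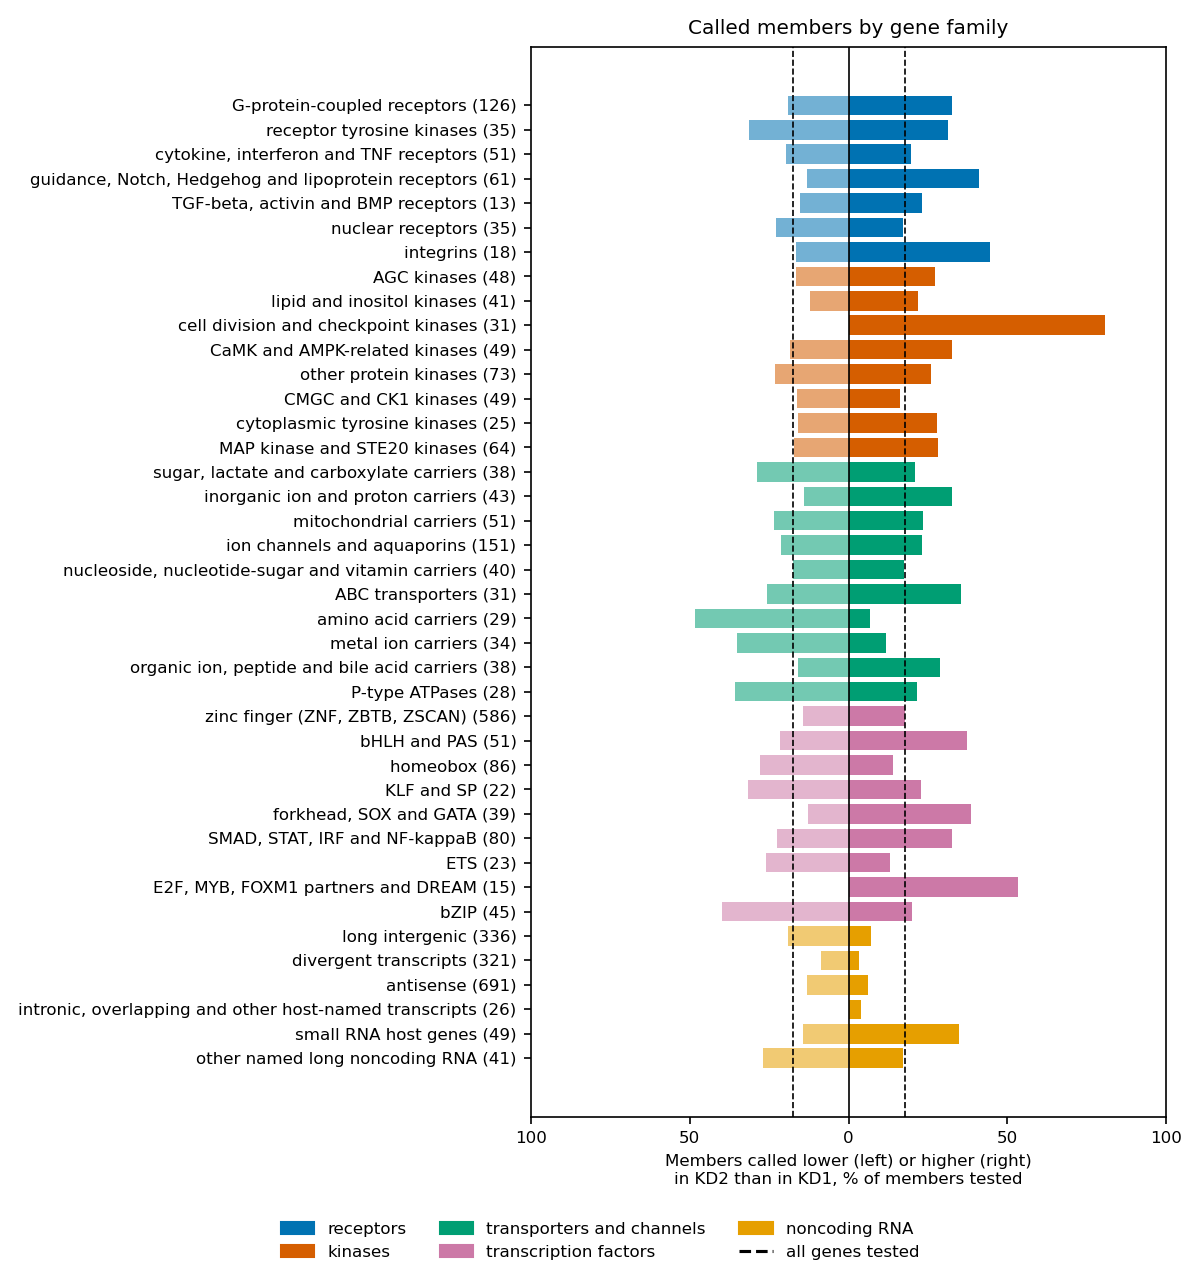
Each bar gives the share of the tested members of a gene family, in percent, called higher (right) or lower (left) in KD2 than in KD1, with the number tested in parentheses and the share over all genes tested as dashed lines (17.9% higher and 17.5% lower). Cell division kinases reach 80.6% to the right with no bar to the left, and amino acid carriers hold 14 lower against 2 higher of 29.

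Among receptors, the G-protein-coupled family and the guidance, Notch and lipoprotein receptors had more members higher than lower in KD2. Of 126 G-protein-coupled receptors tested, 41 were higher and 24 lower (median log2 fold change 0.18; 14 lower without KD2 replicate 1), and of 61 guidance, Notch, Hedgehog and lipoprotein receptors 25 were higher and 8 lower (median 0.24). Integrins, which anchor cells to matrix, had 8 of 18 higher and 3 lower. Receptor tyrosine kinases were even, with 11 of 35 higher and 11 lower (62.9% called). Cytokine and TNF receptors had 10 of 51 in each direction (39.2% called). Beside these and the family counts below stand the shares over all genes tested, 35.5% called, 17.9% higher and 17.5% lower. At 20 CPM or more these shares were 50.6%, 26.4% and 24.3%. The genes named from here on were taken by a fixed rule that requires a call and no overlap between the groups' libraries, so that separation is a property of the choice (66.8% of all genes at 20 CPM or more separate in this way).

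GPRC5A, an orphan receptor induced by retinoic acid, stood at 145, 143 and 149 CPM in the KD1 libraries and at 365, 367 and 358 in the KD2 libraries. Its log2 fold change was 1.32 ± 0.05 (SE) at an adjusted p of 5.7e-15, and NT and the rescue averaged 148 and 182 CPM. PLXNA2, a plexin that binds semaphorins, went from 55.1, 52.8 and 53.5 CPM in KD1 to 168, 187 and 182 in KD2 (log2 fold change 1.74 ± 0.08). PTPRK, a receptor tyrosine phosphatase at cell contacts, went from 14.8, 12.3 and 16.5 CPM to 55.7, 50.7 and 50.9 (1.84 ± 0.10), with 57.5 CPM on average in the rescue libraries. SDC4, a heparan sulfate proteoglycan that acts as a coreceptor for growth factors, stood at 97.7, 103 and 104 CPM in KD1 and 194, 196 and 199 in KD2 (0.96 ± 0.06). The most abundant moderate receptor gene was NR4A1, an orphan nuclear receptor of the immediate early response, at 1082, 1074 and 1047 CPM in KD1 and 1533, 1679 and 1730 in KD2 (0.63 ± 0.06), and 10.3% of its exon bases lie under an antisense gene that this counting cannot separate.

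A pair of adhesion receptors that lie next to each other on chromosome 6 was named as the largest changes past a log2 fold change of 2 among receptors. Their width is thus a property of the choice. Both averaged under 20 CPM in KD1 and passed that floor through KD2. ADGRF5 (GRCh38, 46852522 to 46954943, minus strand) was at 1.70, 1.91 and 2.16 CPM in KD1 and at 51.1, 55.6 and 53.2 in KD2 (log2 fold change 4.78 ± 0.16, adjusted p = 2.4e-16). ADGRF1 (46997708 to 47042350, minus strand) was at 7.86, 10.5 and 9.37 CPM in KD1 and 174, 168 and 166 in KD2 (4.20 ± 0.10, adjusted p = 4e-19). The rescue libraries averaged 7.14 CPM for ADGRF5 and 67.6 for ADGRF1, and NT averaged 1.80 and 8.87. Of 3 neighbours, looked up after these values were seen, TNFRSF21 went the same way and ADGRF4 and CD2AP the other way. ADGRF4 averaged 0.709 CPM in KD1 and 0.254 in KD2 (-1.48), CD2AP fell from 242 to 155 (-0.65), and TNFRSF21, the death receptor DR6, rose from 135 to 224 (0.73). Also past a log2 fold change of 2, but outside the naming rule, were the ADP receptor P2RY1 and the somatostatin receptor SSTR5. P2RY1 averaged 19.6 CPM in KD1 and 184 in KD2 (3.22), and SSTR5 6.60 and 35.4 (2.42, with 32.1% of its exon bases shared with another gene).

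Receptors lower in KD2 included growth factor and hormone receptors. RET, the tyrosine kinase receptor for glial cell line-derived ligands, stood at 156, 150 and 144 CPM in KD1 and 55.1, 62.0 and 58.6 in KD2 (log2 fold change -1.36 ± 0.06, adjusted p = 1.1e-13), with NT at 156 and the rescue at 152. IGF1R, the receptor for insulin-like growth factors, went from 448, 478 and 484 CPM to 289, 283 and 285 (-0.72 ± 0.05). THRB, a thyroid hormone receptor, went from 37.5, 35.1 and 39.7 CPM to 14.6, 17.5 and 15.7 (-1.24 ± 0.09), and BMPR1B, a type I receptor for bone morphogenetic proteins, from 41.4, 39.6 and 40.9 to 12.6, 15.1 and 13.5 (-1.57 ± 0.12). NR3C1, the glucocorticoid receptor, added after its values were seen, averaged 54.1 CPM in KD1 and 32.2 in KD2 (-0.75), while VDR, the vitamin D receptor, rose from 56.5 to 89.8 (0.67).

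Per exon length, the order of the tyrosine kinase receptors changed between the groups. In scaled counts per kilobase of exon (RPKM), KD1 held ERBB2 at 45.2, DDR1 at 42.6, ERBB3 at 41.5, IGF1R at 33.7 and EPHB4 at 26.4. In KD2 the collagen receptor DDR1 came first at 60.2, before ERBB2 at 50.1, EPHB4 at 35.7, ERBB3 at 35.1 and IGF1R at 20.5. RET, at 16.7 RPKM in KD1, stood at 6.53 in KD2. ERBB2 itself was not called (log2 fold change 0.15, adjusted p = 0.065), so the change of first place rests on DDR1 (0.50, adjusted p = 7.3e-07).

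**Figure D2:**
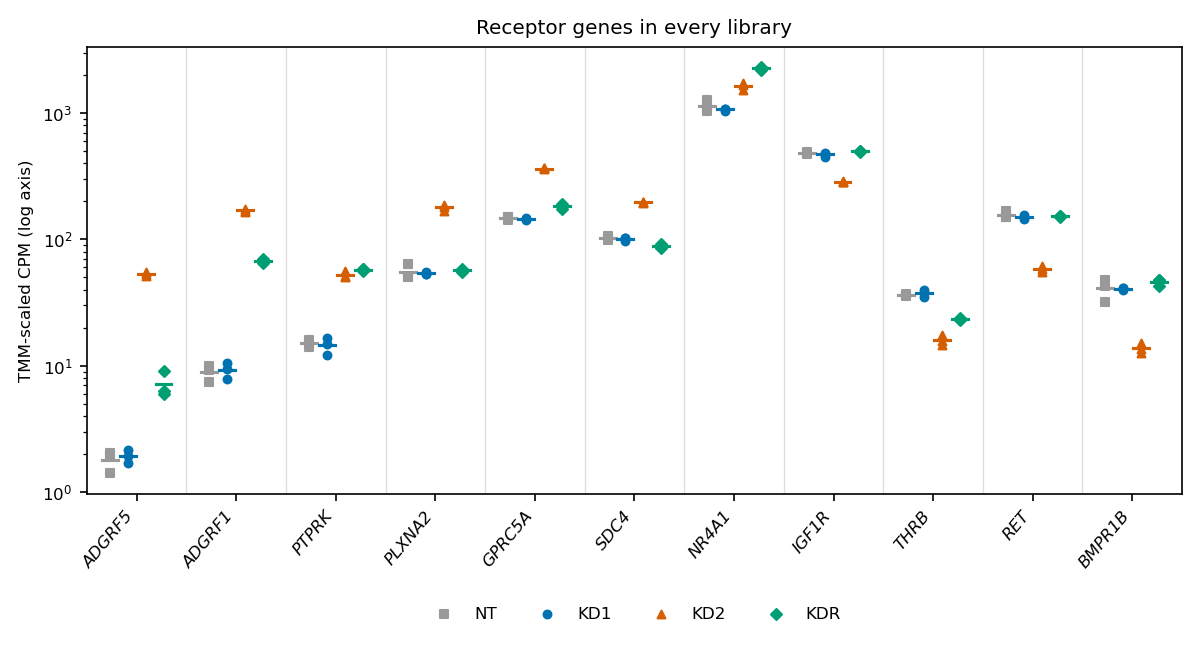
Levels of the named receptor genes in every library are plotted in CPM on a log axis, with a dash at each group mean. KD2 lies apart from KD1 in each column, and the rescue libraries lie beside KD2 for PTPRK, beside KD1 for PLXNA2, RET and IGF1R, and between them for ADGRF1 (67.6 CPM).

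Most kinases of cell division and its checkpoints were higher in KD2. Of 31 tested, 25 were called higher and none lower (80.6%, median log2 fold change 1.31), and the 6 that were not called were PRKDC, ATM, TLK1, TLK2, AURKC and CDK6. CDK1, the cyclin-dependent kinase that drives entry into mitosis, stood at 14.8, 16.6 and 17.0 CPM in KD1 and 51.7, 52.8 and 49.0 in KD2 (log2 fold change 1.67 ± 0.10, adjusted p = 3.1e-12), with 14.3 CPM in NT and 25.7 in the rescue. CIT, citron kinase of the cleavage furrow, went from 8.74, 8.44 and 9.03 CPM to 29.1, 32.6 and 32.5 (1.84 ± 0.11). The spindle checkpoint kinase BUB1 averaged 7.02 CPM in KD1 and 27.1 in KD2 (1.95), the mitotic kinase AURKB 3.58 and 14.8 (2.03), and PLK1 7.91 and 24.9 (1.65). Smaller changes, picked out with those of BUB1, AURKB and PLK1 after their values were seen, were those of the replication stress kinase ATR, which went from 54.3 to 66.2 CPM (0.29), of CDK2 from 17.1 to 23.0 (0.43) and of CDK4 from 58.7 to 69.3 (0.24, with 44.2% of its exon bases shared). Most of this family is of low level. At 20 CPM or more, 8 of 12 members were called higher (66.7%, against 26.4% of all genes at that level), with a median log2 fold change of 0.26. With the 6 libraries fitted alone, 3 of the 31 were called lower.

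Promoters of cell division genes often carry a CCAAT box, bound by NF-Y, and a cell cycle genes homology region (CHR), bound by the DREAM and MuvB complexes, so these short motifs were looked up in RefSeq promoter windows (GRCh38.p14) of 250 bases before to 50 bases after a start site. CHR was searched as TTTGAA or TTCGAA and the box as CCAAT, both on either strand. A CHR match was present for 7 of 17 higher kinases with a window (41.2%), 2 of 4 uncalled ones and 15.3% of the tested genes with a window. For a CCAAT match these were 9 of 17 (52.9%), 3 of 4 and 42.7%. A gene counted when any of its windows matched. Per window, the shares were 33.3%, 18.2% and 12.0% for CHR and 54.2%, 45.5% and 34.7% for CCAAT. CDK1 and CIT, the family's genes that the naming rule gave, and BUB1 are shown by the 150 bases just before a start site that lie outside the annotated gene, 5′ to 3′ on the gene's strand, with CCAAT or its reverse complement ATTGG in capitals. They lie at chr10:60778181-60778330 (plus strand), chr12:119877321-119877470 (minus strand) and chr2:110678064-110678213 (minus strand). These stretches hold no CHR match, but the full windows held up to 3 for CDK1, 2 for CIT and 1 for BUB1.
CDK1: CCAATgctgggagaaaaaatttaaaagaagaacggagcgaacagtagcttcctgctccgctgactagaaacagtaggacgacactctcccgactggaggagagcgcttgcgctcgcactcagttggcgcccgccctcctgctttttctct
CIT: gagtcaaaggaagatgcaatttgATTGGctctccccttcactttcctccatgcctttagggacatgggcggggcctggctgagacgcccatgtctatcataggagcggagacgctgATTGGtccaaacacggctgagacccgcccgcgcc
BUB1: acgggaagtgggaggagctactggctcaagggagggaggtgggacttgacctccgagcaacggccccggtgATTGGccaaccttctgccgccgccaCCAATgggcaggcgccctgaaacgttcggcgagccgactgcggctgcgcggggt
A match describes these letters only, and no factor binding was measured.

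The other kinases that the rule named as higher were MAP3K5, TNIK, NEK7 and MAPK13. MAP3K5, the stress kinase ASK1, stood at 30.3, 28.1 and 30.7 CPM in KD1 and 64.0, 61.8 and 56.1 in KD2 (log2 fold change 1.03 ± 0.09). TNIK, a kinase of the Wnt and JNK pathways, went from 21.9, 18.1 and 20.4 CPM to 42.3, 44.0 and 41.3 (1.08 ± 0.09). NEK7, which takes part in spindle assembly and the NLRP3 inflammasome, went from 58.1, 66.5 and 63.8 to 133, 125 and 124 (1.02 ± 0.10), and MAPK13, the delta isoform of p38, from 70.9, 67.5 and 67.9 to 110, 107 and 109 (0.66 ± 0.07). LYN, a SRC family kinase, was lower in KD2: 130, 127 and 137 CPM in KD1 against 58.5, 57.8 and 53.3 (-1.22 ± 0.06, adjusted p = 2.5e-13). RPS6KA2, a ribosomal S6 kinase of the ERK pathway, went from 59.5, 64.0 and 59.1 to 22.3, 26.4 and 25.6 (-1.30 ± 0.08) and stayed low in the rescue at 22.2 CPM.

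Other kinases and pseudokinases were lower as well. TRIB3, a pseudokinase target of ATF4 that binds AKT, stood at 322, 307 and 321 CPM in KD1 and 184, 183 and 198 in KD2 (-0.75 ± 0.06). STK40 went from 182, 170 and 165 to 92.6, 91.6 and 95.5 (-0.88 ± 0.06), and RIPK4, a kinase of epithelial differentiation, from 107, 111 and 115 to 61.8, 61.2 and 64.2 (-0.83 ± 0.07, 11.5% of its exon bases shared). The catalytic subunits of the NF-kappaB kinase complex, picked out after their values were seen, went opposite ways. IKBKB averaged 27.6 CPM in KD1 and 42.3 in KD2 (0.62, adjusted p = 2.8e-06), and CHUK 47.5 and 22.6 (-1.07, adjusted p = 1.4e-08).

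**Figure D3:**
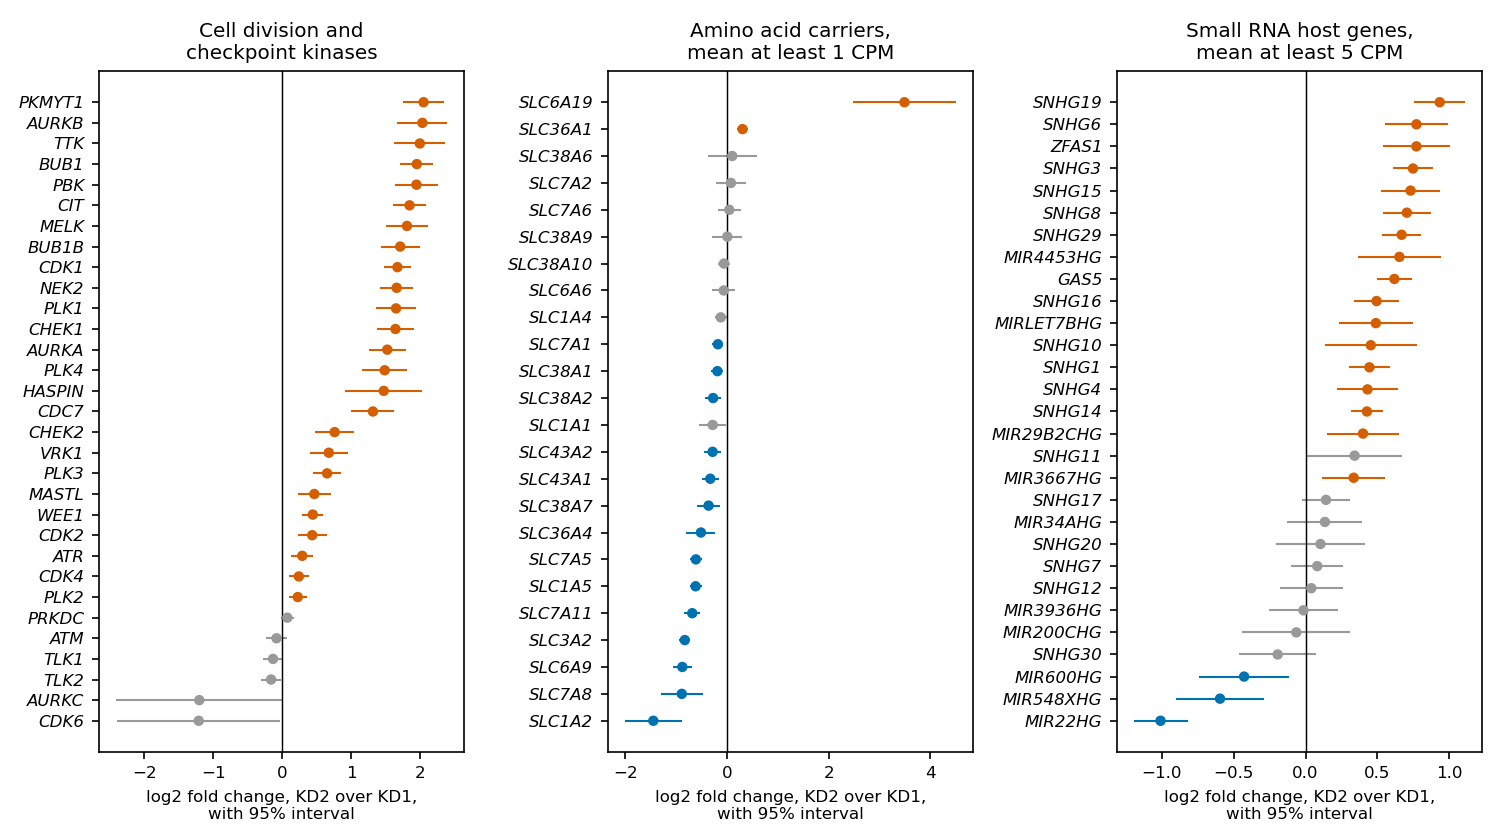
Points give the log2 fold change of KD2 over KD1 per gene and lines its 95% interval, for 31 cell division kinases, 24 amino acid carriers averaging 1 CPM or more and 29 small RNA host genes averaging 5 CPM or more, coloured where called (orange higher, blue lower, grey not called). The kinases lie to the right (25 higher), the carriers mostly to the left (14 lower) and the host genes mostly to the right (17 higher, 3 lower).

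Among drug and lipid exporters of the ABCC family, ABCC5 had the highest level in KD1 and ABCC1 in KD2. ABCC1, which exports glutathione conjugates, stood at 305, 299 and 298 CPM in KD1 and 521, 551 and 546 in KD2 (log2 fold change 0.84 ± 0.05, adjusted p = 3.8e-12), and ABCC4, an exporter of cyclic nucleotides and prostaglandins, at 60.8, 67.9 and 62.8 against 127, 125 and 118 (0.96 ± 0.06). ABCC11, which exports steroid sulfates and other lipophilic anions, went the other way, from 498, 501 and 492 CPM to 127, 131 and 139 (-1.91 ± 0.05, adjusted p = 9.8e-18), and ABCC5, a cyclic nucleotide and heme exporter, from 814.6, 814.5 and 814.6 to 395, 417 and 419 (-0.99 ± 0.04). Per exon length, ABCC5 made up 39.7% of the summed RPKM of 10 ABCC genes in KD1 and 26.4% in KD2, ABCC11 32.5% and 11.4%, ABCC1 19.1% and 45.2%, and ABCC4 4.09% and 10.5%. The sum itself went from 181 ± 0.539 RPKM to 137 ± 3.70 (SD, n = 3 libraries each). ABC transporters as a family had 11 of 31 members higher and 8 lower (61.3% called, against 35.5% of all genes tested).

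Amino acid carriers were lower in KD2 in most called cases. Of 29 tested, 14 were lower and 2 higher (median log2 fold change -0.19). Of 15 averaging 20 CPM or more, 11 were lower and 1 higher (80.0% called, against 50.6% of all genes at that level). SLC7A5, the large neutral amino acid exchanger LAT1, stood at 1325, 1278 and 1295 CPM in KD1 and 826, 856 and 871 in KD2 (-0.61 ± 0.06, adjusted p = 9.6e-09), with 1338 in NT and 1044 in the rescue. Its heavy chain SLC3A2, added after its values were seen like the other carriers in this paragraph, stood at 846, 838 and 836 CPM in KD1 and 469, 462 and 487 in KD2 (-0.83 ± 0.05). SLC7A11, the cystine importer that shares that heavy chain, averaged 517 and 322 CPM (-0.68), the glutamine carrier SLC1A5 706 and 460 (-0.62, 23.8% of exon bases shared) and the glycine carrier SLC6A9 62.5 and 34.0 (-0.88). SLC38A1 and SLC7A1 differed less, from 730 to 640 CPM (-0.19) and from 459 to 406 (-0.18). The exceptions were SLC36A1, a proton-coupled lysosomal carrier, at 405 and 501 CPM (0.31), and SLC6A19 at 0.171 and 1.84 CPM.

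Many of these carriers are known targets of ATF4, the transcription factor of the amino acid response, whose composite site with C/EBP proteins was searched as TGATGNAA on both strands of the same promoter windows. It was present for 4 of 12 lower carriers with a window (33.3%), namely SLC1A5, SLC38A1, SLC3A2 and SLC7A1. A match was also present for 1 of 9 uncalled carriers (SLC1A4) and for 2.82% of the tested genes with a window. The windows of SLC7A5 and TRIB3 hold no match. ATF4 RNA averaged 771 CPM in KD1 and 573 in KD2 (-0.43, adjusted p = 1.9e-07).

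Wide changes were also seen in carriers of sugars, metals and organic cations and in a calcium pump. SLC45A3, the sugar transporter family member known as prostein, was the most abundant transporter named, at 2053, 2030 and 2012 CPM in KD1 and 584, 605 and 620 in KD2 (-1.75 ± 0.05, adjusted p = 6.2e-18). SLC41A1, a magnesium carrier that lies near it on chromosome 1 (205657851 to 205680509 for SLC45A3, 205789094 to 205813748 for SLC41A1, both on the minus strand), went from 271, 271 and 272 CPM to 90.9, 97.5 and 97.7 (-1.51 ± 0.07). SLC30A4, a zinc exporter to vesicles, went from 1142, 1177 and 1191 CPM to 104, 96.6 and 93.6 (-3.58 ± 0.06), and SLC22A3, an organic cation transporter, from 113, 117 and 110 to 0.851, 1.04 and 1.71 (-6.61 ± 0.14). The rescue libraries averaged 2112 CPM for SLC45A3, 353 for SLC41A1, 961 for SLC30A4 and 37.8 for SLC22A3. Metal ion carriers as a family had 12 of 34 members lower and 4 higher, and the latter count was 2 without KD1 replicate 1 or KD2 replicate 2, 1 without KD1 replicate 3 and 7 with the 6 libraries fitted alone.

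ATP2A3, an endoplasmic reticulum calcium pump of the SERCA type, showed the opposite pattern at 9.02, 7.53 and 8.30 CPM in KD1 and 502, 545 and 539 in KD2 (5.99 ± 0.10, adjusted p = 1.4e-21). Its level was 8.66 CPM in NT and 5.95 in the rescue. Moderate rises were seen for SLC16A1, the lactate and pyruvate carrier MCT1, from 14.3, 21.5 and 18.4 CPM to 64.0, 57.5 and 51.7 (1.68 ± 0.12), and for SLC12A2, the sodium, potassium and chloride importer, from 310, 315 and 328 to 510, 488 and 490 (0.64 ± 0.07). SLC22A23, an orphan carrier with 15.6% of its exon bases under PSMG4, went from 140, 145 and 140 to 280, 297 and 300 (1.05 ± 0.06). The nucleoside carriers SLC29A1 and SLC29A2, which import uridine and were added after their values were seen, rose from 33.3 to 57.4 CPM (0.78) and from 35.7 to 62.6 (0.81).

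**Figure D4:**
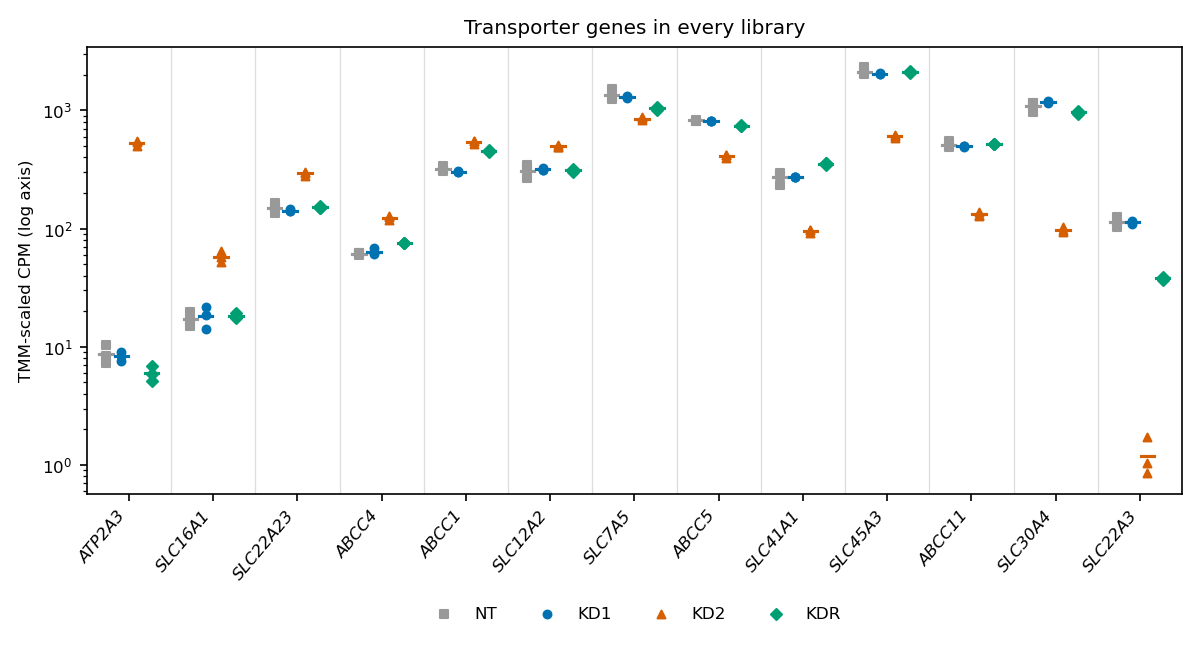
Levels of the named transporter genes in every library are plotted in CPM on a log axis, with a dash at each group mean. ATP2A3 and SLC22A3 give the widest gaps between KD1 and KD2, and the rescue libraries lie near KD1 for ATP2A3, SLC45A3, ABCC11 and SLC30A4 but at 37.8 CPM for SLC22A3.

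Transcription factors that changed included an ETS factor and factors of lipid synthesis. ETV1, an ETS factor that is rearranged or overexpressed in some prostate cancers, stood at 390, 385 and 400 CPM in KD1 and 1428, 1399 and 1353 in KD2 (log2 fold change 1.83 ± 0.06, adjusted p = 1.9e-16), with 360 in NT and 452 in the rescue. SREBF1, the sterol-regulated activator of fatty acid synthesis genes, went from 114, 110 and 112 CPM to 449, 465 and 487 (2.06 ± 0.06), and the rescue stayed high at 582. Its relative SREBF2, the activator of cholesterol synthesis, added after its values were seen, rose from 326 to 559 CPM (0.78). HOXC4 went from 32.1, 35.8 and 30.1 CPM to 8.00, 8.85 and 6.93 (-2.03 ± 0.11), with 17.5% of its exon bases shared within the HOXC cluster.

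By family, called members were more often lower than higher among bZIP factors, and more often higher than lower among cell cycle factors and forkhead, SOX and GATA factors, though many members were not called. Of 45 bZIP factors, 18 were lower, 9 higher and 18 not called, with DDIT3 (CHOP) from 24.3 to 11.3 CPM (-1.11, 39.6% of exon bases shared), CEBPB from 137 to 70.9 (-0.95) and CEBPG from 196 to 112 (-0.81). JUNB, an AP-1 subunit and the bZIP factor that the rule named, stood at 453, 417 and 420 CPM in KD1 and 690, 698 and 789 in KD2 (0.76 ± 0.06), with 14.2% of its exon bases under HOOK2. Among 15 factors of the E2F, MYB and DREAM group, 8 were higher and none lower (1 lower with the 6 libraries fitted alone), with E2F1 at 14.5 and 41.4 CPM (1.51) and MYBL2 at 7.14 and 22.1 (1.62). At 20 CPM or more, 3 of 8 members of that group were called higher (37.5%, against 26.4% of all genes at that level), with a median log2 fold change of 0.06. Of 39 forkhead, SOX and GATA factors, 15 were higher, 5 lower and 19 not called, and 3 were lower without KD2 replicate 1 and 8 with the 6 libraries fitted alone. Named members were FOXM1 at 11.1 and 39.3 CPM (1.83), GATA2 at 275 and 458 (0.73) and SOX9 at 44.4 and 79.8 (0.85). FOXM1 has 15.9% of its exon bases shared. MYC rose from 91.5 to 184 CPM (1.00, adjusted p = 1.1e-11). The members in this paragraph other than JUNB were chosen after their values were seen.

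Among the lower factors that the rule named were the Krüppel-like factors KLF4 and KLF9. KLF4 stood at 412, 415 and 410 CPM in KD1 and 207, 205 and 218 in KD2 (-0.98 ± 0.05), and KLF9 at 163, 172 and 174 against 74.4, 77.0 and 68.4 (-1.21 ± 0.07). Their relative SP6 rose from 16.8, 18.3 and 19 CPM to 59.2, 61.2 and 60.5 (1.74 ± 0.09). Of 22 KLF and SP factors, 7 were lower and 5 higher (54.5% called, against 35.5% of all genes tested). Of 586 zinc finger genes, 104 were higher and 85 lower (32.3% called, below the 35.5% of all genes tested). Among them, the corepressor gene ZNF703 went from 168, 175 and 164 CPM to 311, 343 and 339 (0.97 ± 0.06). Its paralog ZNF704 went from 99.3, 107 and 101 to 211, 213 and 202 (1.03 ± 0.06). ZNF532, a binding partner of bromodomain proteins, went from 433, 446 and 425 CPM to 211, 195 and 197 (-1.11 ± 0.05). The dominant negative helix-loop-helix factors ID1, ID2 and ID3, targets of bone morphogenetic protein signalling, were noted after their values were seen and rose from 150 to 227, from 147 to 325 and from 177 to 315 CPM.

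**Figure D5:**
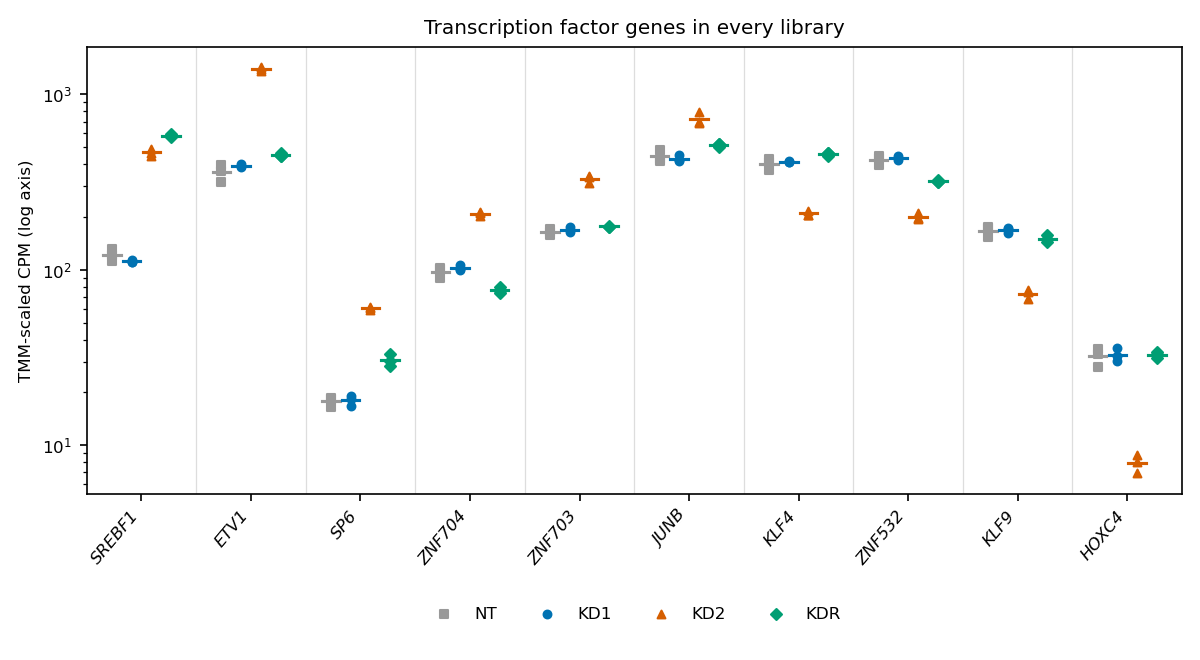
Levels of the named transcription factor genes in every library are plotted in CPM on a log axis, with a dash at each group mean. KD1 lies beside NT in each column, and the rescue libraries lie above KD2 for SREBF1 (582 CPM).

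Of 1464 noncoding RNA genes tested, 200 were called lower and 103 higher. Among those averaging 5 CPM or more, 55 of 296 were higher and 81 lower (45.9% called, against 48.5% of all genes at that level), and of the 205 with under 10% of exon bases shared 31 were higher and 62 lower. PCAT14, a prostate-specific long intergenic RNA, stood at 238, 239 and 230 CPM in KD1 and 880, 848 and 846 in KD2 (1.87 ± 0.05, adjusted p = 2.6e-18), with 220 in NT and 463 in the rescue. NEAT1, the scaffold RNA of nuclear paraspeckles, was the most abundant one named and went from 1543, 1556 and 1521 CPM to 983, 969 and 979 (-0.66 ± 0.04), with 1589 in NT and 2072 in the rescue. DSCAM-AS1 went from 42.3, 38.0 and 40.1 CPM to 7.10, 7.60 and 7.26 (-2.46 ± 0.09), LINC00963 from 124, 127 and 129 to 73.4, 76.9 and 76.9 (-0.74 ± 0.07) and LINC02343 from 17.7, 15.97 and 16.7 to 8.15, 5.38 and 6.81 (-1.30 ± 0.13). DLX6-AS1 went from 9.06, 7.90 and 7.60 to 2.53, 2.26 and 1.17 (-2.01 ± 0.21), and WNT5A-AS1 rose from 17.5, 12.98 and 13.4 to 35.2, 34.9 and 39.7 (1.32 ± 0.12). Poly-A selection measures noncoding RNAs only as far as they carry a poly-A tail.

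Small RNA host genes are transcripts whose introns or exons release small nucleolar RNAs, the guides of ribosomal RNA modification, or miRNAs. Of 49 tested, 17 were higher, 7 lower and 25 not called. Of the 14 averaging 20 CPM or more, 11 were higher and 1 lower (median log2 fold change 0.56). That is 85.7% called, against 50.6% of all genes at that level. GAS5 stood at 109, 108 and 116 CPM in KD1 and 180, 165 and 167 in KD2 (0.62 ± 0.06, adjusted p = 1.3e-08), and SNHG29 at 112, 106 and 107 against 169, 171 and 176 (0.67 ± 0.07). SNHG19 and SNHG1, added after their values were seen, averaged 38.2 and 73.0 CPM (0.93) and 41.8 and 56.8 CPM (0.45), with 13.5% and 15.4% of exon bases shared. SNHG6 and ZFAS1 also rose (0.77 each), but 62.4% and 43.1% of their exon bases are shared with other genes, where unstranded counting cannot assign the reads.

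The abundant host gene that fell was MIR22HG, the precursor transcript of miR-22, at 35.6, 38.1 and 33.9 CPM in KD1 and 17.5, 18.1 and 17.8 in KD2 (-1.01 ± 0.09, adjusted p = 6e-09). SREBF1, described above as higher, carries miR-33b in an intron. Mature miRNAs were not measured, and the RefSeq sequences of these 4 are shown because their host transcripts moved in opposite directions. They are written 5′ to 3′ with the seed, bases 2 to 8, in capitals, and the 4 seeds differ.
hsa-miR-22-3p: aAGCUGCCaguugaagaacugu
hsa-miR-22-5p: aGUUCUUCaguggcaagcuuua
hsa-miR-33b-5p: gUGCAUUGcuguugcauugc
hsa-miR-33b-3p: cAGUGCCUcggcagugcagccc
MIR22HG lies on chromosome 17 at 1711447 to 1717174 and SREBF1 on chromosome 17 at 17810399 to 17837002, both on the minus strand.

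C2CD5-AS1, a long antisense transcript on chromosome 12 (22409237 to 22618868, plus strand), was nearly confined to the KD2 libraries. It had 1096, 693 and 517 counts there, 1 count in all of KD1, 2 in NT and 10 in the rescue. The ratio of summed counts was 2310, with a 95% counting interval of 413 to 91100, both scaled by total counts. The interval covers counting error only. The single KD1 count came from replicate 1, and without that library KD1 stood at 0, so that the ratio has no upper bound. ST8SIA1, which the transcript also overlaps on the opposite strand, was too low to be tested, with 14 counts in KD1 and 0 in KD2. C2CD5, the gene on the opposite strand that codes for a C2 domain protein of glucose transporter traffic, stood at 49.7, 52.3 and 51.5 CPM in KD1 and 203, 193 and 175 in KD2 (1.90 ± 0.07, adjusted p = 2e-15), with 59.8 in the rescue. Its values, and those of ETNK1 next to it and of a gene without a symbol inside it, were looked up after the antisense transcript was seen. The gene without a symbol (22460519 to 22463914, minus strand) had 18 counts in KD1, 855 in KD2, 29 in NT and 35 in the rescue. ETNK1, an ethanolamine kinase gene, rose from 70.2 to 107 CPM (0.60, adjusted p = 0.00011). The annotated exons of C2CD5-AS1 and C2CD5 do not overlap, but the counting did not use strand, so unspliced reads from either gene could be counted to the other where exons of one lie in introns of the other.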

How the data were processed

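Each library was deposited by the authors as a table of raw read counts per gene. Per the file headers, the counts were made with featureCounts 1.6.4 on exons grouped by gene, and without settings for strand, read pairs or multi-mapping reads. The submitters' processing notes also name FastQC, cutadapt and HISAT2 on GRCh38, with versions not given in the sources used here.

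The test was edgeR's quasi-likelihood test (version 4.0.16, R 4.3.3) after filterByExpr and TMM scaling, in 1 model of all 12 libraries without terms beside the group. P-values were adjusted by Benjamini-Hochberg over 19373 genes, and a gene was called under 0.05. RPKM was computed from TMM-scaled CPM and exon length.

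Gene classes were defined by symbol. For each class and direction the text names up to 4 moderate genes by smallest adjusted p, up to 2 by highest mean and up to 2 past a log2 fold change of 2. Each had to be called, without overlap between groups, and to average at least 20 CPM over the 6 libraries (noncoding RNA at least 5 CPM, with under 10% of exon bases shared). That mean covers both groups, so some genes passed only through the group where they are high. Some genes that this would name are not reported here. Members, lists and the rule were chosen with earlier results of these data known. The method was tested on simulated data. Alternatives were DESeq2 1.42.0, its size factors, other filters, the 6 libraries alone, a replicate block, a fold minimum and leaving out each library. Promoter and miRNA sequences are RefSeq's (GRCh38.p14).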

Additional observations from a re-analysis of the deposited data

How the results depend on the processing

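All 57 genes that the naming rule gives, whether or not reported here, kept their direction and their call in each of 12 alternative fits (684 values), which covered DESeq2, edgeR with DESeq2's size factors, all genes unfiltered, genes of 1 CPM or more in 3 libraries, the 6 libraries alone, the replicate block and leaving out each of the 6 libraries. DHODH was called higher when the 6 libraries were fitted alone (log2 fold change 0.33, adjusted p = 0.028) and ranged from 0.24 to 0.43 when 1 library was left out; it was called without KD2 replicate 1 (0.43, adjusted p = 0.04). The cause was not tested. Counts over all genes and over the 5 classes stayed within 1.5 times their values in those fits, with 2963 to 3022 genes higher and 2893 to 2959 lower when 1 library was left out and 4081 and 3999 with the 6 libraries alone. A minimum absolute log2 fold change of 1 lowers counts by construction, to 848 genes higher and 884 lower, 36 and 25 receptors, 29 and 8 kinases, 30 and 28 transporters and channels, 46 and 35 transcription factors, and 45 and 103 noncoding RNA genes. Cell division kinases had 24 to 25 members higher and 0 to 3 lower over the 12 fits, and amino acid carriers 2 higher in each and 13 to 16 lower.

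Replicate numbers did not pair the libraries: same-numbered KD1 and KD2 libraries had residual correlations of -0.07, 0.02 and -0.07 across 11201 genes, and with the replicate block 3433 genes were higher and 3356 lower, with DHODH at 0.34 (adjusted p = 0.069). The median log2 fold change moved by -0.0021 with DESeq2's size factors. Counts of each read end and unstranded counting limit genes that overlap others, and reads that map to many places were not counted.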
